A study of Mus musculus with 11 samples.

Results

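The genes described here are 33 genes of B cells and lymphoid follicles, measured in the small intestine of mice. They were taken by symbol from a table of 24250 genes, and all 33 were found. The list was drawn up from FPKM values of these same libraries, so their levels are given as a description, and counts of limma calls among them are printed beside the share over all genes and support nothing.

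RNA was sequenced in 11 libraries of 3 groups. There were 3 ND libraries (normal diet), 4 HFD libraries (high-fat diet) and 4 libraries of mice that received 5 Substances Powder with Poria (FSP; the labels spell out the number), a herbal preparation of Chinese medicine. The labels themselves do not expand ND and HFD. The labels do not give the diet of the FSP group, the dose or duration, the strain, sex or age of the mice, or the stretch of small intestine taken. Nor do they state whether each library is a different mouse, so p-values below measure only the spread between these libraries, which may be technical.

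Organised lymphoid tissue lies along the small intestine as Peyer's patches and smaller isolated lymphoid follicles, which are scattered and unevenly spaced. In a follicle, stromal and follicular dendritic cells secrete the chemokine CXCL13, which attracts B cells that carry its receptor CXCR5, and lymphotoxin made by lymphocytes acts back on the stroma. B cells recognise antigen through an immunoglobulin held in the membrane with the signalling chains CD79A and CD79B, and co-receptors raise or lower the signal that follows. In bulk tissue, fewer cells of a type and less RNA per cell cannot be told apart.

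Levels are in FPKM (fragments scaled to gene length and to the library's total), so different genes are compared per length. Values of single libraries are listed in the order of their replicate numbers. Library depth read from the steps of low values was 3.18e+07 to 3.84e+07 fragments, so that 1 FPKM on 1 kb of transcript means 31.8 to 38.4 fragments. Of the 33 genes, 32 had a mean of at least 1 FPKM over the 11 libraries and entered the tests across 10296 genes. The remaining gene, Ccr7, had a mean of 0.687 FPKM. Genes encoded in the mitochondrial genome took 40.4% of all FPKM in HFD 1 and 12.9% to 26.3% elsewhere, which lowers every other gene of HFD 1.

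For 21 of the 33 genes, the RefSeq promoter table (build GRCm38.p6) held the bases before the start, in 25 promoters. The genes without an entry were Cd79b, Ms4a1, Blk, Ly6d, Ptprcap, Cxcr5, Ccr7, Il22ra2, Napsa, Ncf4, Nckap1l and Cd52. The upstream bases of 8 genes with an entry are shown, 7 because they hold letters known from B cell and lymphoid promoters, and Cr2 as an example with none. Each is the 150 bases up to the base before the RefSeq start, written 5′ to 3′ on the strand of the gene, with the letters of a searched motif in capitals.
Vpreb3: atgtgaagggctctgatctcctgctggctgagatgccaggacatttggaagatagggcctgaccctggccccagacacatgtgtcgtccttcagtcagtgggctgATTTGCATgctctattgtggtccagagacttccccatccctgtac
Ccr6: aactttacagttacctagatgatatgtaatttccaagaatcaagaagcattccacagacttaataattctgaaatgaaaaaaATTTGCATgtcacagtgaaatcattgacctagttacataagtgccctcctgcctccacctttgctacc
Fcrl1: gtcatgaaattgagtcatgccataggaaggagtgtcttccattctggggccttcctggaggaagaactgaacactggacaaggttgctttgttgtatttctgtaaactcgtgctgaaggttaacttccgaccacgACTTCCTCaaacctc
Cd72: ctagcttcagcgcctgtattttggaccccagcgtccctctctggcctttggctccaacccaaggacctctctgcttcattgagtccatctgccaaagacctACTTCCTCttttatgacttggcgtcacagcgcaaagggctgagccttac
Bank1: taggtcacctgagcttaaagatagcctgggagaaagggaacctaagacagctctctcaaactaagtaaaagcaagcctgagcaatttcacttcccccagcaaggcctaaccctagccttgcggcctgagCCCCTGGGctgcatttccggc
Madcam1: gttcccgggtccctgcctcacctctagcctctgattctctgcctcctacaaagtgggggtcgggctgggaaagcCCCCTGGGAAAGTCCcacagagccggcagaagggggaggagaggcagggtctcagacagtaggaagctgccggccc
Cxcl13: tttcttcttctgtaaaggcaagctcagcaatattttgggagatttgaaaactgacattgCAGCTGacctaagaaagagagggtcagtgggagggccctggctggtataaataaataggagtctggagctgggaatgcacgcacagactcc
Cr2: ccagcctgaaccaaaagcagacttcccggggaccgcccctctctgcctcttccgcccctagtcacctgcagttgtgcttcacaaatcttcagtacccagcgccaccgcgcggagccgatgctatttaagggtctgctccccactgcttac

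These stretches lie at chr10:75948150-75948299 (plus strand) for Vpreb3, chr17:8235893-8236042 (plus strand) for Ccr6, chr3:87376237-87376386 (plus strand) for Fcrl1 and chr4:43454627-43454776 (minus strand) for Cd72. The others lie at chr3:136326067-136326216 (minus strand) for Bank1, chr10:79664409-79664558 (plus strand) for Madcam1, chr5:95956789-95956938 (plus strand) for Cxcl13 and chr1:195176720-195176869 (minus strand) for Cr2. Vpreb3 and Ccr6 hold the octamer ATGCAAAT on the other strand, shown here as ATTTGCAT, 45 and 68 bases before the start. The octamer is bound by OCT factors together with the coactivator encoded by Pou2af1, another of the 33 genes. Fcrl1 and Cd72 hold the ETS letters GAGGAAGT on the other strand, shown as ACTTCCTC, a form bound by PU.1 and by SPIB, whose gene is also among the 33. Bank1 holds the EBF letters CCCNNGGG 21 bases before the start. In Madcam1 the EBF letters and the NF-kB letters GGANNTTCC run into each other, beginning 76 and 70 bases before the start, so the capitals mark both. Cxcl13 holds the E-box CAGCTG, and Cr2 holds none of the 5 motifs in its searched bases.

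Over 250 bases before the start and both strands, the octamer was present for 3 of the 21 genes (Blnk, Ccr6 and Vpreb3) and in 1.60% of 32851 promoters in the table. The ETS letters were present for 4 genes (Btla, Cd37, Cd72 and Fcrl1) and in 2.44% of promoters. The EBF letters were present for 5 genes (Bank1, Cd22, Coro1a, Madcam1 and Spib) and in 11.8% of promoters, the NF-kB letters for 3 genes (Cd37, Ltb and Madcam1) and in 3.59%, and the E-box for 3 genes (Btla, Cxcl13 and Fcer2a) and in 13.0%. Any of the 5 motifs was present for 15 of the 21 genes and in 28.9% of promoters, and some of the genes have more than 1 promoter in the table. A match of letters is a description and not a binding site.

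Apart from Blnk, the 33 genes were high in the same 5 libraries, namely HFD 1, HFD 2, HFD 3, FSP 1 and FSP 2, and low in ND 1, ND 2, ND 3, HFD 4, FSP 3 and FSP 4. These 5 libraries were the 5 highest for 32 of the 33 genes, and for 1.95% of the 10296 tested genes. The genes were chosen with this pattern known, so the count describes the choice. Summed over the 33 genes, the level was 33.1, 31.4 and 21.2 FPKM in ND, 675, 420.4, 165 and 31.5 FPKM in HFD and 659, 345, 21.5 and 43.6 FPKM in FSP. HFD 4 and FSP 3 thus lay within the range of the ND libraries, and FSP 4 lay above it. FSP 1 was the highest library for 22 genes and HFD 1 for 11, and FSP 3 was the lowest for 15.

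**Figure D1:**
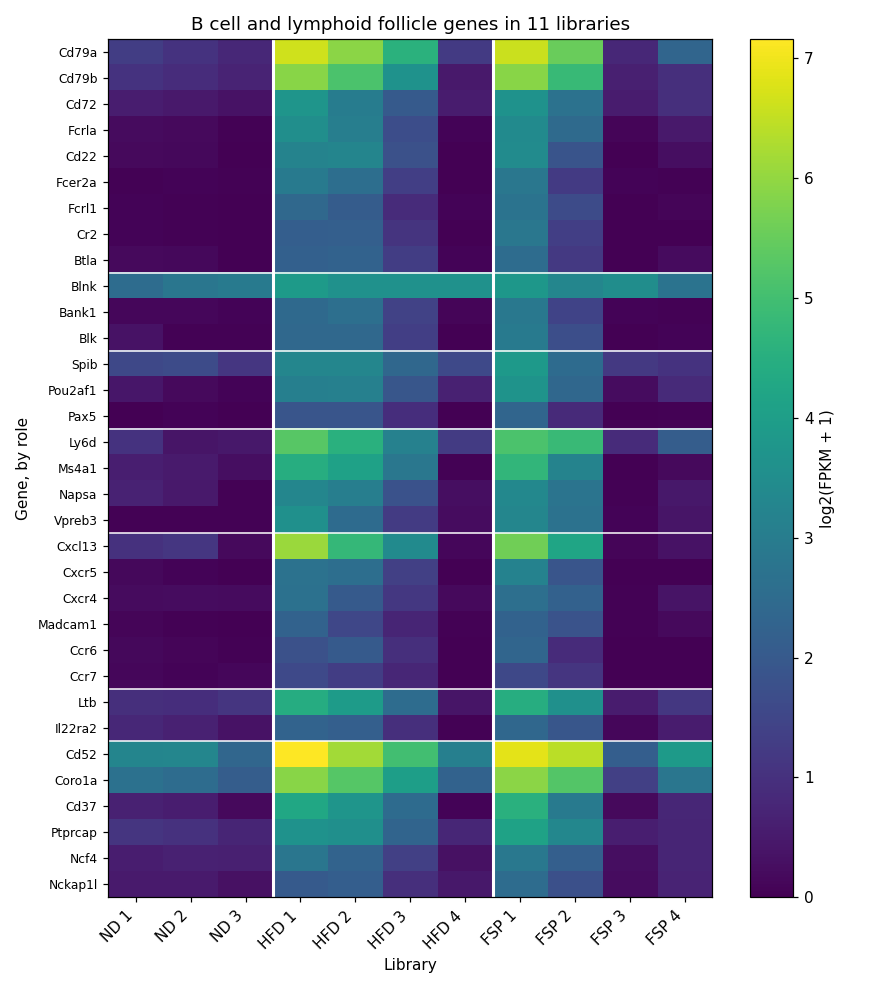
Level of each of the 33 genes (rows, grouped by role with thin white lines) in each of the 11 libraries (columns, groups parted by thick white lines), as log2(FPKM + 1) in colour. HFD 1 to 3 and FSP 1 and 2 are bright for 32 of the 33 genes, whereas Blnk has a similar colour in all libraries.

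Cd79a and Cd79b encode the signalling chains of the B cell receptor. In GENCODE vM21 on the build mm10, Cd79a lies at chr7:24897381-24902197 (plus strand) and Cd79b at chr11:106311341-106314762 (minus strand). Cd79a was at 1.47, 1.06 and 0.752 FPKM in ND, 99.3, 59.3, 22.8 and 1.31 in HFD and 95.3, 44.8, 0.733 and 4.07 in FSP. Cd79b was at 1.08, 0.864 and 0.634 FPKM in ND, 58.0, 34.1, 11.6 and 0.392 in HFD and 58.3, 27.1, 0.554 and 0.956 in FSP. For both genes the high HFD and FSP libraries stood far above ND, while HFD 4 and FSP 3 were within or below the ND range, so the HFD and FSP groups each overlapped with ND. The mean of Cd79a was 1.10 ± 0.362 FPKM in ND (SD, n = 3), 45.7 ± 43.0 in HFD (SD, n = 4) and 36.2 ± 44.2 in FSP (SD, n = 4), and the SD of HFD and FSP was about as large as their mean.

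The co-receptors followed at lower levels. Cr2, a complement receptor of B cells and follicular dendritic cells, was at 0.0536, 0.0221 and 0 FPKM in ND, 3.40, 3.46, 1.10 and 0.00725 in HFD and 6.21, 1.503, 0 and 0.00706 in FSP. Fcer2a, the low-affinity IgE receptor CD23, was at 0.0270, 0.0454 and 0.0384 FPKM in ND, 6.53, 4.98, 1.53 and 0.0128 in HFD and 6.14, 1.33, 0.0561 and 0.0373 in FSP. Both were close to 0 in the 6 low libraries, FSP 4 included. Cd22, an inhibitory sialic acid-binding co-receptor, was at 0.123, 0.107 and 0.0176 FPKM in ND, 8.22, 8.54, 2.44 and 0.0175 in HFD and 9.95, 2.61, 0.00571 and 0.199 in FSP. The same 5 libraries were high for Cd22, with HFD 1 and HFD 2 nearly level.

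Cd72, another inhibitory co-receptor, ranged from 0.264 FPKM in ND 3 to 12.2 FPKM in HFD 1, and the inhibitory receptor gene Btla from 0.0108 FPKM in FSP 3 to 4.76 FPKM in FSP 1. Fcrl1 and Fcrla, members of the Fc receptor-like family of B cells, ranged from 0.00943 FPKM in FSP 3 to 5.67 FPKM in FSP 1 and from 0.0312 FPKM in ND 3 to 10.5 FPKM in HFD 1. Tesk1 overlaps 41.6% of the exon bases of Cd72 on the opposite strand, and strand use in the authors' counting is not given in the sources used here, so Cd72 is less certain than its neighbours.

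Among the signalling genes, Blk, a SRC-family kinase of B cells, was at 0.264, 0.0331 and 0.0326 FPKM in ND, 4.35, 4.32, 1.53 and 0 in HFD and 6.57, 2.30, 0 and 0.0528 in FSP. Bank1, a scaffold protein of B cell receptor signalling, was at 0.0889, 0.0855 and 0.0537 FPKM in ND, 4.46, 5.09, 1.66 and 0.0764 in HFD and 6.35, 1.71, 0.0448 and 0.0223 in FSP. Both were high in the 5 libraries and at or below 0.264 FPKM in the other 6.

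Blnk, the adaptor that links the kinase SYK to downstream signalling, was the exception. The gene lies at chr19:40928927-40994535 (minus strand). It was at 4.82, 6.05 and 6.64 FPKM in ND, 13.99, 11.3, 11.3 and 11.4 in HFD and 12.7, 8.73, 10.4 and 5.62 in FSP. The 4 HFD libraries were close together and all lay above all ND libraries, and HFD 4 and FSP 3, low for the other genes, held about as much Blnk as HFD 2 and HFD 3. Its highest library was only 2.90 times its lowest, against a median ratio of 197 over the 27 genes with no library at 0.

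Of the transcription factors, Pax5, which maintains B cell identity, was at 0.0173, 0.0398 and 0.00982 FPKM in ND, 2.71, 2.68, 0.899 and 0.00326 in HFD and 4.09, 0.800, 0 and 0.0254 in FSP. Pou2af1, the octamer coactivator, was at 0.343, 0.138 and 0.0420 FPKM in ND, 7.44, 7.76, 2.76 and 0.575 in HFD and 11.9, 4.28, 0.184 and 0.805 in FSP. HFD 4 and FSP 4 lay above the ND libraries for Pou2af1, and neither did for Pax5. Spib, an ETS factor used by B cells and also needed by M cells, the antigen-sampling epithelium over follicles, was at 1.94, 2.12 and 1.18 FPKM in ND, 8.70, 8.82, 4.25 and 1.96 in HFD and 13.6, 4.67, 1.30 and 1.06 in FSP. Spib kept 1.06 to 2.12 FPKM in the 6 low libraries, a higher floor than Pax5, and its 5 high libraries spanned 4.25 to 13.6 FPKM.

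Ms4a1, which encodes CD20, was at 0.514, 0.440 and 0.199 FPKM in ND, 20.9, 16.1, 6.16 and 0.0270 in HFD and 25.3, 8.16, 0.00880 and 0.132 in FSP. Its highest library was 2874 times its lowest, the widest ratio among the genes with no library at 0, although the lowest values rest on very few fragments. Ly6d, a surface protein of the B lineage, was at 1.07, 0.316 and 0.389 FPKM in ND, 38.1, 22.5, 7.92 and 1.36 in HFD and 33.9, 27.8, 0.835 and 3.29 in FSP, and Vpreb3, related to the surrogate light chain, was at 0.0319, 0.0306 and 0.0302 FPKM in ND, 11.2, 4.65, 1.36 and 0.181 in HFD and 8.72, 5.43, 0.0589 and 0.323 in FSP. For both genes HFD 4 and FSP 4 lay above the ND libraries, by far less than the 5 high libraries did. Napsa, an aspartic protease, ranged from 0.0355 FPKM in FSP 3 to 9.03 FPKM in FSP 1.

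**Figure D2:**
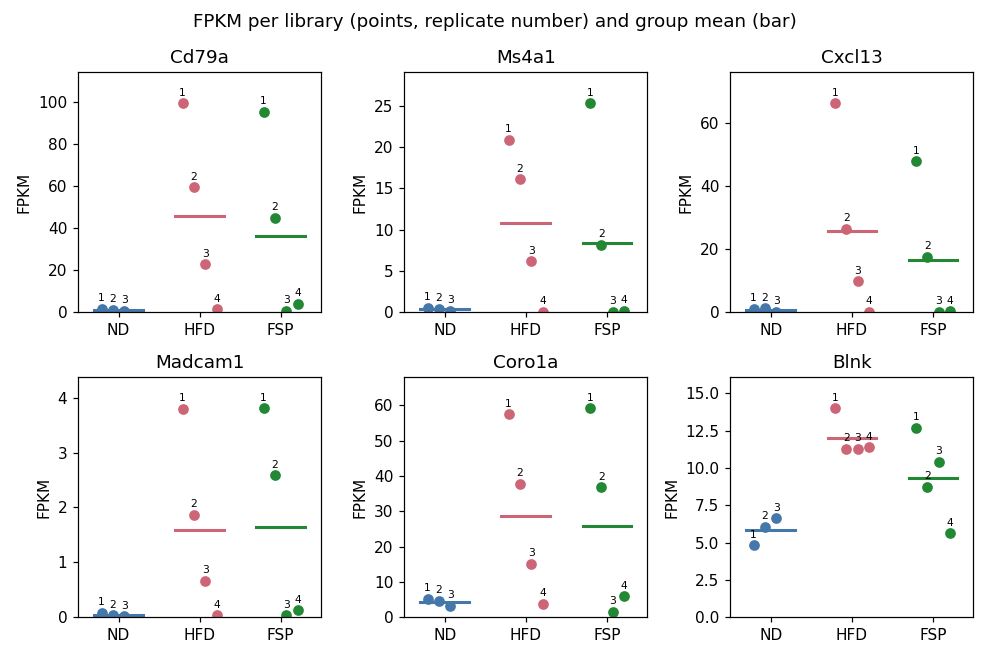
FPKM of Cd79a, Ms4a1, Cxcl13, Madcam1, Coro1a and Blnk per library (points, numbered by replicate) with the mean of each group (bar), on axes that start at 0. In the first 5 genes HFD 4, FSP 3 and FSP 4 sit near the ND libraries, and in Blnk the 4 HFD libraries sit together at 11.3 to 13.99 FPKM.

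The chemokine system of the follicle followed the B cell genes. Cxcl13, the B cell attractant made by follicle stroma, lies at chr5:95956951-95961068 (plus strand) and was at 1.01, 1.18 and 0.137 FPKM in ND, 66.2, 26.3, 9.80 and 0.0913 in HFD and 47.7, 17.6, 0.0670 and 0.267 in FSP. Cxcr5, its receptor, was at 0.118, 0.0517 and 0.0102 FPKM in ND, 5.51, 4.96, 1.54 and 0.0102 in HFD and 8.07, 2.69, 0 and 0.00991 in FSP. Both were high in the same 5 libraries, and Cxcl13 in HFD 4 and FSP 3 was below the ND range. Madcam1, the addressin of gut high endothelial venules that binds lymphocyte integrin, was at 0.0788, 0.0379 and 0.0187 FPKM in ND, 3.79, 1.87, 0.666 and 0.0372 in HFD and 3.80, 2.58, 0.0364 and 0.127 in FSP. A stromal and an endothelial gene were thus high in the same libraries as the B cell genes, a pattern known when they were chosen. Of genes that were not chosen this way, 5 of 20 in a follicle stroma list had the same 5 highest libraries. In an endothelial list the count was 0 of 8.

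Ccr7, the receptor that guides cells to T cell zones, was at 0.101, 0.0553 and 0.0954 FPKM in ND, 2.00, 1.48, 0.700 and 0 in HFD and 1.95, 1.16, 0 and 0.0132 in FSP. Ccr6, the receptor of the epithelial chemokine CCL20, was at 0.107, 0.0772 and 0.0254 FPKM in ND, 2.41, 3.06, 0.964 and 0 in HFD and 4.00, 0.832, 0 and 0.0185 in FSP. Both reached 0 in HFD 4 and FSP 3. Cxcr4, the receptor of CXCL12, ranged from 0.0365 FPKM in FSP 3 to 5.34 FPKM in HFD 1. Ltb, the membrane-bound lymphotoxin chain, was at 0.959, 0.922 and 1.13 FPKM in ND, 20.8, 14.1, 4.74 and 0.319 in HFD and 21.2, 11.1, 0.455 and 1.22 in FSP, with ND 1 to 3 close together. Il22ra2, a soluble protein that binds and blocks IL-22, was at 0.736, 0.586 and 0.273 FPKM in ND, 3.80, 3.47, 0.949 and 0.0217 in HFD and 4.29, 2.79, 0.0850 and 0.4661 in FSP. HFD 4, FSP 3 and FSP 4 lay below or within the ND range for Il22ra2.

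The genes shared with other leukocytes ranged widely in their lowest levels. Cd52, a small surface glycoprotein of lymphocytes, was at 8.52, 8.68 and 4.12 FPKM in ND, 142, 71.1, 30.9 and 7.58 in HFD and 115, 84.4, 3.44 and 13.98 in FSP. Coro1a, an actin-binding protein of leukocytes, was at 5.35, 4.73 and 3.29 FPKM in ND, 57.5, 37.8, 15.2 and 3.76 in HFD and 59.2, 36.8, 1.57 and 5.99 in FSP. FSP 4 lay above the ND range for both genes, and FSP 3 below it. Cd37, a tetraspanin, ranged from 0.0520 FPKM in HFD 4 to 22.1 FPKM in FSP 1, Ptprcap, a partner of CD45, from 0.527 FPKM in FSP 3 to 16.3 FPKM in FSP 1, Nckap1l, part of the WAVE actin complex of blood cells, from 0.179 FPKM in FSP 3 to 4.77 FPKM in FSP 1, and Ncf4, a subunit of the phagocyte oxidase, from 0.209 FPKM in FSP 3 to 6.23 FPKM in FSP 1. Rps6kb2 overlaps 76.0% of the exon bases of Ptprcap on the opposite strand and Coro1b 26.8% on the same strand, so its level is uncertain.

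On the log2(FPKM + 1) scale, the spread of these genes within groups was wide in HFD and FSP and narrow in ND. This pattern was known when they were chosen. In ND only 5 to 9 of the 33 genes reached 1 FPKM, and the scale understates differences of such low genes. As a ratio of FPKM, the highest over the lowest ND library had a median of 2.35 over 32 genes and reached 16.9 (Napsa). In HFD the median ratio was 67.4 over 30 genes. The SD of log2(FPKM + 1) within a group had a median over the 33 genes of 0.11 in ND, 1.26 in HFD and 1.45 in FSP, and over all tested genes 0.13, 0.23 and 0.24. It was above the 95th percentile of tested genes for 2 of the 33 genes in ND and for 32 each in HFD and FSP. Blnk had the smallest SD of the 33 in HFD, 0.14. In HFD 1, HFD 2, HFD 3, FSP 1 and FSP 2, all 33 genes were above the highest ND library. The count was 5 in HFD 4, 3 in FSP 3 and 17 in FSP 4. Below the lowest ND library lay 15 genes in HFD 4, 23 in FSP 3 and 6 in FSP 4.

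The first comparison asks how the diets differ. In HFD the mean of all 33 genes was above that in ND. The difference in mean log2(FPKM + 1) had a median of 1.62 and a range of 0.75 (Il22ra2) to 3.53 (Cd79a), against a median of -0.21 over all tested genes. The linear ratio of HFD to ND means had a median of 26.0. For 5 of the 33 genes (Pou2af1, Vpreb3, Fcrl1, Ly6d and Blnk) every HFD library was above every ND library. Fcrl1 was at 0.0579 FPKM in HFD 4, its lowest HFD library, and at up to 0.0408 FPKM in ND. For Vpreb3 these values were 0.181 and 0.0319 FPKM. Such low values rest on few fragments, unlike those of Blnk. Complete separation in either direction held for 42.9% of all tested genes. Limma with Benjamini-Hochberg adjustment called 1 of the 32 tested genes, Blnk, higher by 0.93 (SE 0.21), whereas it called 20.5% of all tested genes in either direction. An unadjusted p under 0.05 was reached by 10 of the 32 and by 37.6% of all tested genes. Without HFD 4 it called 12 of the 32, and without ND 1 none. The median over the 33 genes was 2.22 without HFD 4, and it was -0.039 with HFD 4 as the only HFD library.

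The second comparison asks how the powder group differs from HFD. The mean FPKM in FSP was below that in HFD for 31 genes and slightly above it for Madcam1 and Nckap1l. Cd79a averaged 36.2 ± 44.2 FPKM in FSP and 45.7 ± 43.0 in HFD (SD, n = 4 each). The median difference in log2(FPKM + 1) was -0.39, with a range of -1.04 (Cxcl13) to -0.061 (Madcam1), and the median over all tested genes was 0.12. FSP and HFD overlapped for all 33 genes, whereas 10.8% of tested genes separated completely. Limma called none of the 32 genes, and it called 3.74% of all tested genes. An unadjusted p under 0.05 was reached by none of the 32 and by 18.7% of all tested genes. The direction turned without FSP 3, where the median became 0.10. Without any other library of the comparison it stayed below 0, from -1.02 without FSP 1 to -0.023 without HFD 1. HFD held 3 high libraries of 4 and FSP held 2 of 4.

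The last comparison sets the powder group against normal diet. The mean of all 33 genes was higher in FSP than in ND, with a median log2 difference of 1.19, a range of 0.56 to 2.76, and a median of -0.07 over all tested genes. Every FSP library was above every ND library for 1 of the 33 genes, Vpreb3, and for 16.4% of tested genes separation was complete in either direction. Vpreb3 was at 0.0302 to 0.0319 FPKM in ND and at 0.0589 FPKM in FSP 3, its lowest FSP library. Such low values rest on very few fragments, so this separation is uncertain. Limma called none of the 32 genes and 1.03% of all tested genes. An unadjusted p under 0.05 was reached by 2 of the 32 and by 14.4% of all tested genes. Without FSP 1 the median was 0.60, and with FSP 3 and FSP 4 as the only FSP libraries it was -0.014. The comparisons share libraries: each group enters 2 of the 3.

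Levels in the 5 high libraries were also set against Cd79a. The genes were chosen with their pattern known, and the share over all tested genes was not computed. The counts are therefore only a description. Relative to Cd79a, 23 of the other 32 genes stayed within 2-fold across HFD 1, HFD 2, HFD 3, FSP 1 and FSP 2, and 8 of these within 1.5-fold, while Cd79a itself went from 22.8 to 99.3 FPKM. Ltb was 0.208 to 0.248 of Cd79a, Cd79b 0.507 to 0.611 and Cd72 0.120 to 0.134. The ratio varied most for Blnk, by 3.72-fold, and next for Fcer2a, by 2.82-fold, Ccr6, by 2.78-fold, and Pax5, by 2.53-fold. The last 3 had their lowest ratio in FSP 2.

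Differences between some of the high libraries went with summed exon length in GENCODE vM21, taken over all transcripts of a gene. For HFD 1 over HFD 2, the median FPKM ratio was 1.99 for the 7 genes with up to 1.5 kb of exons, 1.20 for the 13 of 1.5 to 3 kb and 1.11 for the 13 above 3 kb. In tested genes the medians were 0.86, 0.81 and 0.76. For FSP 2 over FSP 1 the medians were 0.62, 0.54 and 0.30 for the 33 genes, and 0.95, 0.85 and 0.78 for tested genes. For HFD 3 over HFD 2 they were 0.36, 0.36 and 0.33, nearly level. RNA quality is not given in the labels, and its part in this was not tested. The libraries HFD 1 and FSP 2 also had the lowest levels of smooth muscle genes, with list means of 3.72 and 3.29 on the log2(FPKM + 1) scale against 4.71 to 5.95 elsewhere.

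**Figure D3:**
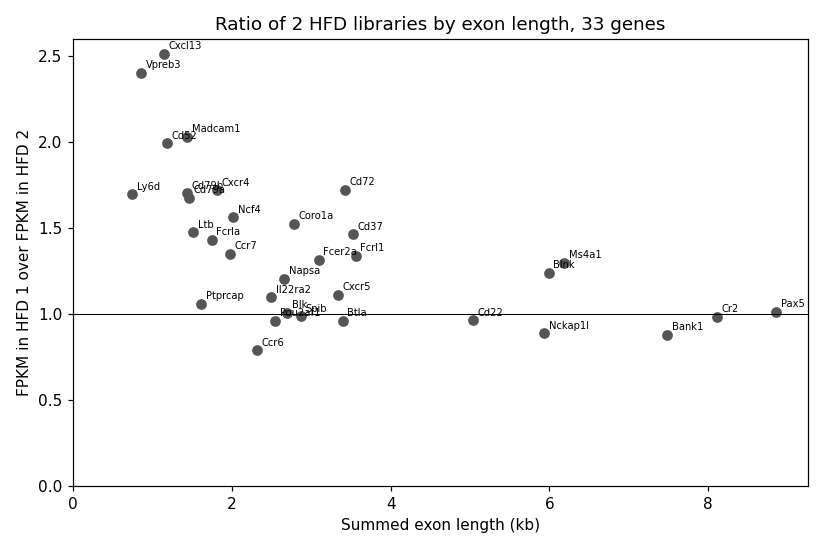
FPKM in HFD 1 divided by FPKM in HFD 2 (vertical axis) against summed exon length in kb (horizontal axis) for the 33 genes, each point a gene. The 7 shortest genes lie between 1.67 and 2.51, and the 3 longest, Bank1, Cr2 and Pax5, lie between 0.877 and 1.01.

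Many other B cell genes that were not members were high in the same libraries. Of 20 measured genes in a list of other B cell identity genes, 13 had the same 5 highest libraries. Among its 11 tested genes the count was 9, beside 1.95% of all tested genes. This list, too, was chosen with earlier results of these data known, so the count is only a description. Fcmr, the IgM Fc receptor, was at 0.133, 0.146 and 0 FPKM in ND, 27.4, 17.2, 5.56 and 0 in HFD and 23.1, 8.14, 0.0527 and 0.140 in FSP. It was at or near 0 outside the 5 libraries. Of the 11 tested genes of this list, 1 rose in HFD against ND, Cd83, a surface protein of activated B cells and dendritic cells (log2 change 2.12, SE 0.60, limma adjusted p = 0.0296). The call was lost without ND 1, ND 2, ND 3, HFD 1 or HFD 2, with adjusted p up to 0.0895. The list had a median of 1.41 in that comparison. Cd24a and Irf8, its most abundant genes, had no such pattern. Cd24a was at 53.8, 49.1 and 38.9 FPKM in ND, 21.8, 30.6, 36.2 and 38.0 in HFD and 43.7, 20.5, 33.9 and 31.4 in FSP.

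The list of the wider B cell receptor pathway includes many genes that other cells use too. Of its 20 genes, 7 had the same 5 highest libraries. Of 17 tested, 1 fell in HFD against ND, the kinase gene Lyn (log2 change -0.39, SE 0.12, limma adjusted p = 0.0404), and none rose. The call of Lyn was lost under 3 of 4 scalings (adjusted p up to 0.44) and without any library of the comparison but ND 1 (up to 0.142). The adaptor gene Grb2 was at 30.7, 30.5 and 26.2 FPKM in ND, 26.1, 26.0, 24.5 and 24.4 in HFD and 31.8, 28.0, 28.0 and 29.0 in FSP. The median of the pathway list was 0.13 for HFD against ND.

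Genes of the germinal centre, where B cells mutate and select their receptors, did not follow as a list. Of 11 measured genes, 3 had the same 5 highest libraries. Of 6 tested germinal centre genes, 2 fell in HFD against ND, namely Rgs13 (log2 change -0.93, SE 0.27, limma adjusted p = 0.0326) and Efnb1 (-0.62, SE 0.14, adjusted p = 0.0115), and none rose. Both calls were lost without ND 1 or ND 2, and that of Rgs13 also without HFD 1 or HFD 2, with adjusted p up to 0.152 for Rgs13 and 0.0631 for Efnb1. Of all 10296 tested genes, 552 rose and 1557 fell in this comparison. Il21r, picked out after its values were seen, was higher in HFD without a call (log2 change 1.06, SE 0.59). The other tested genes of the list were lower.

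For follicle stroma and lymphoid organ formation, 5 of 20 genes had the same 5 highest libraries, among them Mfge8 and Clu, both known from follicular dendritic cells. Clu was at 4.99, 4.48 and 2.85 FPKM in ND, 62.9, 44.5, 18.1 and 3.63 in HFD and 76.2, 30.0, 10.3 and 5.70 in FSP. Mfge8 was at 11.96, 11.5 and 10.1 FPKM in ND, 67.8, 51.4, 27.0 and 13.5 in HFD and 88.5, 32.8, 12.6 and 19.1 in FSP. These genes and Ccl21a, a chemokine of T cell zones, were picked out after their values were seen. Ccl21a was at 1.41, 0.849 and 0.558 FPKM in ND, 4.99, 8.80, 4.10 and 0.773 in HFD and 16.9, 6.13, 0.483 and 5.24 in FSP. Clu in FSP 3 and FSP 4, Ccl21a in FSP 4, and Mfge8 in HFD 4, FSP 3 and FSP 4 were above the ND range. Of 14 tested genes, Bst1 rose in HFD against ND (log2 change 0.69, SE 0.21, limma adjusted p = 0.0416) and Relb, a transcription factor downstream of the lymphotoxin receptor, fell (-0.54, SE 0.17, adjusted p = 0.0464). The call of Relb was lost under 3 of 4 scalings (adjusted p up to 0.341) and without any library of the comparison but HFD 1 (up to 0.146), and that of Bst1 under equal totals (0.106) and without ND 1, ND 2, HFD 3 or HFD 4 (up to 0.179).

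Of 14 genes of M cells and follicle-associated epithelium, none had the 5 highest libraries. Gp2, an M cell receptor for bacteria, was picked out after its values were seen and was at 0.0286, 0.0550 and 0.0136 FPKM in ND, 0.142, 0.731, 0.256 and 0.149 in HFD and 1.75, 2.31, 0 and 0.198 in FSP. Marcksl1 was at 10.5, 10.1 and 8.86 FPKM in ND, 11.7, 11.2, 9.91 and 9.91 in HFD and 41.4, 31.5, 26.1 and 23.6 in FSP. The FSP libraries of Marcksl1 did not overlap with the others, and it rose in FSP against HFD (log2 change 1.41, SE 0.16, limma adjusted p = 0.00843) and against ND (1.52, SE 0.17, adjusted p = 0.00242). Both calls of Marcksl1 held without each library in turn and under all 4 scalings tried. Pglyrp1 fell in HFD against ND (-1.55, SE 0.44, adjusted p = 0.0311), a call lost under median-ratio scaling (0.0819) and without ND 1, ND 2, HFD 1, HFD 3 or HFD 4 (up to 0.111).

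Plasma cells, the antibody-secreting descendants of B cells, had another pattern. Jchain, the joining chain of secreted IgA and IgM, was at 33.7, 39.1 and 62.1 FPKM in ND, 70.0, 151, 142 and 121 in HFD and 408, 697, 84.3 and 335 in FSP. HFD 4 and FSP 4, low in B cell genes, were not low in Jchain, and it rose in FSP against ND (log2 change 2.76, SE 0.57, limma adjusted p = 0.0446). The call was lost without any library of the comparison but FSP 3, with adjusted p up to 0.242. Sdc1 fell in HFD against ND (-1.36, SE 0.29, adjusted p = 0.00800), and Fkbp11 rose in FSP against HFD (0.65, SE 0.16, adjusted p = 0.0464). The call of Sdc1 held without each library in turn, while that of Fkbp11 was lost without each of the 8 libraries in turn (adjusted p up to 0.115) and under 3 of 4 scalings. The list did not move in a single direction in HFD against ND. Jchain (1.40, SE 0.57) and Mzb1 (1.88, SE 0.68), the latter picked out after its values were seen, were higher without a call. Xbp1, Fkbp11 and Ell2 were lower without a call. Of 11 measured plasma cell genes, 2 had the same 5 highest libraries.

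Of 23 measured T cell genes, 10 had the same 5 highest libraries, and 4 were abundant enough to test, none of which passed in any comparison. Cd2 followed the B cell genes, at 0.124, 0.167 and 0.118 FPKM in ND, 6.67, 5.46, 1.70 and 0.0938 in HFD and 6.03, 2.82, 0.0688 and 0.320 in FSP. Cd3g, a chain of the T cell receptor complex, did not, at 4.41, 3.87 and 2.82 FPKM in ND, 2.98, 4.52, 2.70 and 2.23 in HFD and 4.9997, 7.17, 0.923 and 2.81 in FSP. The summed T cell list ranged from 6.47 to 11.5 FPKM in ND, 6.94 to 23.8 FPKM in HFD and 3.56 to 29.4 FPKM in FSP. None of the 12 genes of intraepithelial and cytotoxic lymphocytes and none of 12 macrophage genes had the 5 highest libraries, and 1 of 10 dendritic cell genes did. The macrophage list summed to 33.9 to 40.7 FPKM in ND, 43.4 to 96.0 in HFD and 29.6 to 159 in FSP, led by Lyz2 at 14.7, 13.4 and 11.99 FPKM in ND, 57.9, 51.3, 23.6 and 7.49 in HFD and 93.4, 48.6, 5.63 and 30.3 in FSP. Of other genes shared by leukocytes, 12 of 14 had the same 5 highest libraries, and 1 of 13 tested, Cytip, rose in HFD against ND (log2 change 0.60, SE 0.19, limma adjusted p = 0.0461). The call was lost under 2 of 4 scalings (adjusted p up to 0.0712) and without ND 1, ND 2, HFD 1, HFD 2 or HFD 3 (up to 0.184).

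**Figure D4:**
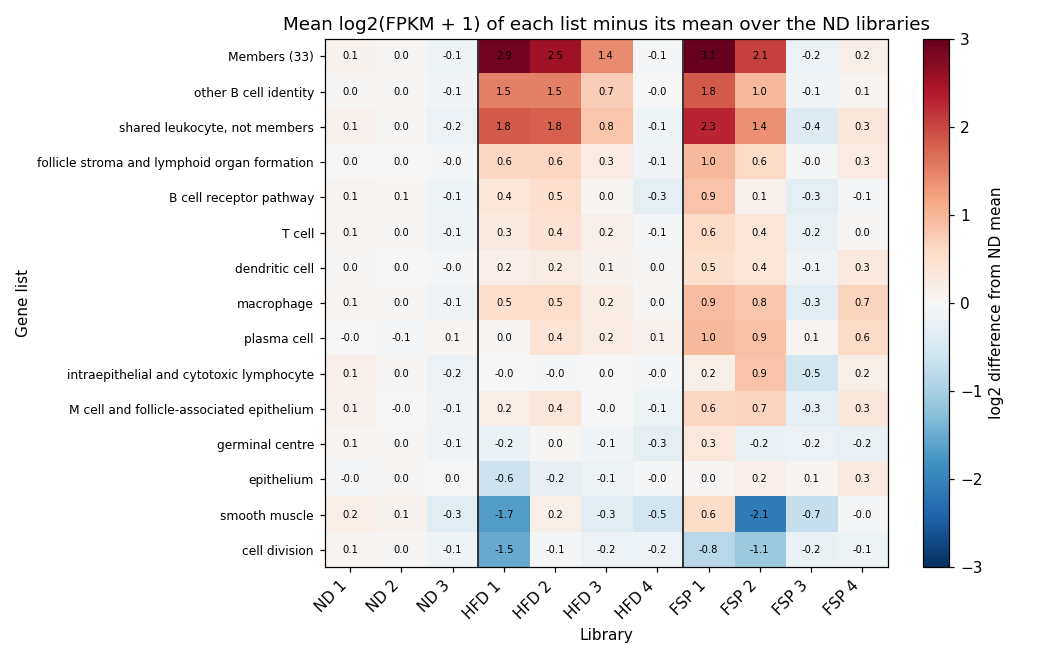
Mean log2(FPKM + 1) of each gene list (rows) in each library (columns), minus its mean over the 3 ND libraries, in colour and as printed values. The 33 genes, other B cell genes and shared leukocyte genes are raised in HFD 1 to 3 and FSP 1 and 2, plasma cell genes mainly in FSP 1, 2 and 4, and smooth muscle genes are low in HFD 1 and FSP 2.

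MHC class II genes split. H2-DMb2, H2-Oa and H2-Ob, which encode chains of the peptide-loading regulators of class II, had the same 5 highest libraries, and H2-Oa was at 0.163, 0.179 and 0.0881 FPKM in ND, 9.07, 6.81, 2.66 and 0.264 in HFD and 10.6, 5.62, 0.0215 and 0.321 in FSP. The classical class II gene H2-Aa was at 618, 667 and 673 FPKM in ND, 264, 407, 163 and 31.9 in HFD and 343, 380.5, 32.2 and 119.6 in FSP. H2-Aa was highest in ND, where H2-Oa was near its floor, and both were low in HFD 4 and FSP 3. H2-Ab1 and H2-Eb1 had the order of H2-Aa in this respect, with 473, 541 and 546 and 207, 228 and 243 FPKM in ND. Of 9 tested class II genes, H2-DMb1 fell in HFD against ND (log2 change -2.41, SE 0.69, limma adjusted p = 0.0315) and none rose. The call was lost under median-ratio scaling (adjusted p = 0.0591) and without any library of the comparison but HFD 2 (up to 0.1002).

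**Figure D5:**
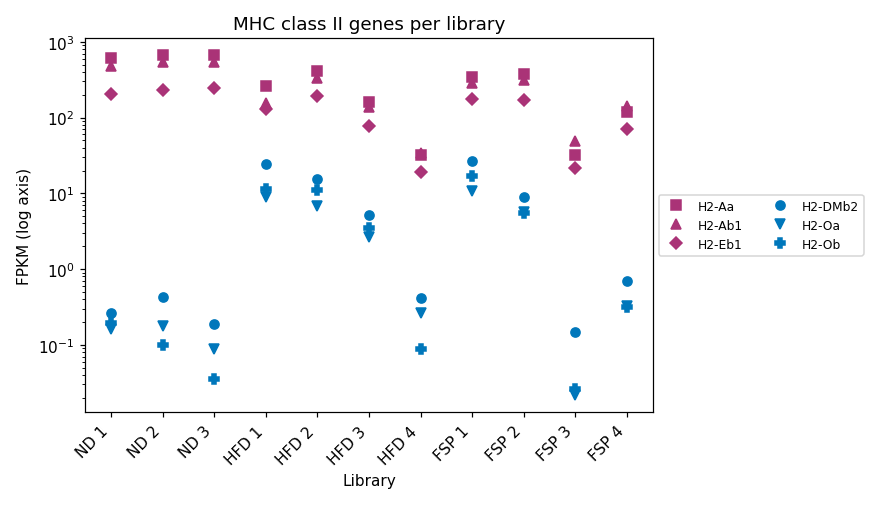
FPKM on a log axis of 6 MHC class II genes in the 11 libraries. H2-Aa, H2-Ab1 and H2-Eb1 are highest in ND, and H2-DMb2, H2-Oa and H2-Ob stay below 1 FPKM except in HFD 1 to 3 and FSP 1 and 2, and HFD 4 and FSP 3 are the lowest libraries of the first 3.

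Among the genes whose profile over the 11 libraries lay nearest to that of Cd79a, Cd79b and Ms4a1, by root mean square distance of scaled log2(FPKM + 1), were Fcmr, H2-Oa, H2-DMb2, H2-Ob, Hvcn1, Cd2, Ncf1, Tnfrsf13c, Tnfrsf13b, Ifi209 and H2-Eb2. Hvcn1, a proton channel of B cells and phagocytes, was at 0.445, 0.372 and 0.239 FPKM in ND, 15.8, 12.3, 3.98 and 0.389 in HFD and 16.5, 5.59, 0.155 and 0.619 in FSP. Tnfrsf13c, the receptor of the B cell survival factor BAFF, ranged from 0.0269 FPKM in FSP 3 to 13.4 FPKM in HFD 1. Among the 33 genes the distance was 0.08 for Cd79b, 0.09 for Cd37 and 0.10 for Fcrla. It was 0.28 for Pax5, 0.29 for Spib and for Ccr6, and 0.83 for Blnk, while its median over all tested genes was 1.66.

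Tissue composition was compared by marker lists beside these genes. Epithelial genes were abundant in every library, with Krt8 at 1786, 1851 and 1704 FPKM in ND, 1304, 1507, 1712 and 1943 in HFD and 2039, 2270.4, 2171 and 2537 in FSP. None of the epithelial, smooth muscle, fat cell, endothelial, cell division or pancreatic lists had a gene with the 5 highest libraries. Genes of the distal small intestine fell in HFD against ND for 8 of 10 tested genes, and those of the proximal part rose for 6 of 8 and fell for 2, beside 552 higher and 1557 lower of all 10296 tested genes. Of these calls, Amn was lost under median-ratio scaling and without ND 2 or ND 3, Gata4 under equal totals and without ND 1, ND 2, HFD 3 or HFD 4, Slc11a2 without ND 1, ND 2 or ND 3, and Lct without any library of the comparison but ND 3. In FSP against HFD, 5 of 10 distal genes rose, and each of these 5 calls was lost without FSP 4. Within HFD the mean of the distal list was 4.19 to 4.64 on the log2(FPKM + 1) scale, and the sum of the 33 genes 31.5 to 675 FPKM. Of 4 tested red blood cell genes, 3 rose in HFD against ND, each call lost without ND 1 or ND 2, and 3 of 5 measured had the 5 highest libraries. The part of the stretch of intestine, of the amount of muscle and of blood in the levels of the 33 genes was not tested.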

How the data were processed

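RNA from the small intestine of mice was sequenced in 11 libraries. Per the labels' protocols, TRIzol was used for extraction and a VAHTS Universal V6 kit for the libraries. Tools listed in the submitters' processing notes are fastp, HISAT2, HTSeq and R 3.2.0, with the build mm10. Not given in the sources used here are the annotation, the use of strand and how FPKM was computed. Expression was deposited by the authors as FPKM, and no counts entered the tests. FPKM divides a library by its own total, so an abundant class of RNA lowers all other genes of that library. For the genes they shared, the single-library tables held the same values as the joint table. Each FSP table held the same 24250 genes as the joint table. Each ND and HFD table held 24294 genes, of which 23609 were shared, while 641 genes of the joint table were missing. All 33 genes were in every table. The reason for this difference between FSP and the other groups was not tested.

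Groups and replicate numbers came from sample titles. Values were tested as log2(FPKM + 1), which understates changes of low genes, with limma 3.58.1 in R 4.3.3 over genes with a mean of at least 1 FPKM, the 3 groups in 1 fit with an intensity trend, p-values on both sides, Benjamini-Hochberg adjustment and a threshold of 0.05. The fit was tested on simulated data. Named were all members and, of each other list, the 3 most abundant genes and up to 4 genes per comparison past the threshold, plus the 12 nearest profiles, except items that are not reported here. The 33 members, their roles and the other lists were chosen with earlier results of these data known. Alternatives covered scaling, pseudocount, low-value filters, groups in the fit, library weights, a replicate block and leaving out each library. Depth was read from low values of 804 genes with a single exon, of which 73.8% to 77.7% lay within 0.05 of a whole fragment. Gene models were GENCODE vM21 and RefSeq. A search of protein letters was not run, as protein sequences were not used here.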

Additional observations from a re-analysis of the deposited data

Results flagged for a closer look

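In 112 groups of 4 libraries that were screened, 3 held a library far from the other 3, by a rule that chance meets in about 1 of 20 groups. Blnk was at 13.99 FPKM in HFD 1 and at 11.3 to 11.4 FPKM in HFD 2, HFD 3 and HFD 4. The mean log2(FPKM + 1) of the germinal centre list was 1.76 in FSP 1 and 1.22 to 1.25 in the other FSP libraries. The mean log2(FPKM + 1) of the cell division list was 1.89 in HFD 1 and 3.21 to 3.33 in the other HFD libraries.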

How the results depend on the processing

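Scaling left the direction of the 33 genes as reported: their median for HFD against ND was 1.53 to 1.76 under median-ratio scaling, quantile normalization, equal totals and, chosen after seeing the data, rescaling without mitochondrially encoded genes, and all 33 stayed above 0. The split of all called genes did change. For HFD against ND it was 552 higher and 1557 lower as reported, 1098 and 923 under median-ratio scaling and 1124 and 1182 under quantile normalization. For FSP against HFD it was 291 and 94, 181 and 169 under median-ratio scaling, 248 and 193 under quantile normalization, 231 and 41 under equal totals and 162 and 125 without mitochondrially encoded genes. For FSP against ND it was 72 and 34, and 72 and 71 without mitochondrially encoded genes. Of 49 calls of genes in the other lists, 33 held under all 4 scalings and 17 without each library in turn, and none turned direction.

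For HFD against ND, 3 members (Blnk, Ly6d and Pou2af1) instead of 1 were called with a pseudocount of 0.1, where the median was 2.95, and 3 with the 2 groups alone. Library weights, which fell almost wholly on ND 2 (11.1) and HFD 3 (10.2), called 7217 genes and 30 members. Without each library in turn, 849 to 1898 genes and 0 to 12 members were called, with a median of 1.26 to 2.22. Leaving out HFD 1 to 3 and FSP 1 and 2, chosen after seeing the data, gave 889 genes, 0 members and a median of -0.039. For FSP against HFD the reported 385 genes became 117 with no filter, 76 with the 2 groups alone, 1592 with weights, 14 without the 5 libraries and 48 to 458 without each library in turn, with no member called and a median of -1.02 to 0.10. For FSP against ND the reported 106 became 196 under quantile normalization, 58 with no filter, 1068 with weights, 21 without the 5 libraries and 13 to 123 without each library in turn, with no member called and a median of 0.60 to 1.61. The cause of these changes was not tested. Same-numbered libraries of different groups correlated at -0.10 to 0.45 in their deviations, and not every pair exceeded 0.1. For FSP and HFD the values were 0.38, 0.018, 0.45 and 0.39 in the order of the numbers. Whether the numbers mark pairs or batches cannot be told from these correlations. With the replicate number as a block, 2357 genes and 32 members were called for HFD against ND, 337 and 0 for FSP against HFD and 77 and 0 for FSP against ND, and of the libraries compared by number 0 of 3, 0 of 4 and 2 of 3 correlated best with their own number. HFD 4 and FSP 4 had no ND partner. Depth limits mainly values below 1 FPKM.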
